A study of Mus musculus with 6 samples.

Results

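Forkhead genes were the subject of this description, namely the 29 genes named for the forkhead family (Foxa to Foxs, with a number) among the 15973 protein-coding genes of the comparison table. The gene annotation holds 44 such genes, and the other 15 (Foxa2, Foxb1, Foxb2, Foxd1, Foxd3, Foxe1, Foxe3, Foxi1, Foxi2, Foxi3, Foxl2, Foxn4, Foxp2, Foxr2 and Foxs1) had 0 counts in all 6 libraries, which allows each a level of at most 0.0323 to 0.0429 CPM (counts scaled to a common library size) in a library, the worth of 3 counts. The members were chosen by name among the genes of that table, so the genes at 0 counts, which it does not list, are not members. RNA-Seq was performed on 4T1-T VM cells, a sub-clone of the mouse mammary carcinoma line 4T1 that forms vessel-like networks (vasculogenic mimicry, VM). All cells were kept overnight in serum starvation medium, fed fluorescent acetylated low-density lipoprotein (acLDL, whose uptake is a property of endothelial cells) at 10 µg/mL for 4 h, and returned to complete medium for 1 h. They were then sorted into the 25% with the highest uptake (acLDL-high) and the 25% with the lowest (acLDL-low), with no knockdown or drug in either group. The experiment was repeated on 3 occasions, which gave 3 libraries per group, replicates 1 to 3. All cells derive from a single sub-clone grown in culture. With occasion as a block, p-values for the groups set the within-occasion difference against an error estimate for repeats of that clone. That estimate draws in part on other genes, so it does not follow the spread of a gene's 3 pairs alone.

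Forkhead transcription factors bind DNA through a winged-helix domain, most of them at variants of the sequence GTAAACA. FOXC1 and FOXC2 act in mesoderm and in the growth of blood and lymph vessels, and FOXC2 is also known for its part in epithelial-mesenchymal transition in breast cancer cells. FOXO proteins are moved out of the nucleus by AKT signalling and switch on genes of cell cycle arrest and stress defence, FOXM1 drives genes of mitosis together with the MuvB complex, and FOXA1 opens chromatin for steroid receptors in luminal mammary cells.

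The 6 libraries held 70263372 to 94216786 counts, of which 98.4% to 98.7% lay in protein-coding genes. The epithelial markers Epcam, Krt8, Krt18, Cdh1, Cldn4 and Cldn7 summed to 2842 to 4557 CPM, and Cldn4 and Cldn7 were higher in acLDL-high cells. The 10 endothelial markers summed to only 1.80 to 3.18 CPM, with 3 of them (Emcn, Cldn5 and Erg) not among the protein-coding genes compared. The 6 T cell markers summed to at most 0.0529 CPM, with 4 not among those genes. Markers that were not compared do not enter the sums, and their counts were not looked up. The 10 macrophage markers summed to 19.3 to 24.4 CPM, nearly all from Cd14, Cd68 and Mrc1, with Adgre1 not among the genes compared. Of the 5 macrophage markers tested, 1 was called, Cd14, which was higher in acLDL-high cells (log2 fold change 0.32, edgeR adjusted p = 0.0246). Cd68 was nominally lower (-0.28, edgeR adjusted p = 0.201), and Mrc1 did not pass (0.30, edgeR adjusted p = 0.38). The part of these markers in the results below was not tested. The 7 fibroblast markers summed to 29.0 to 43.3 CPM, of which Pdgfra made up nearly all, with Lum and Thy1 not among the genes compared. Across genes, 597 of 12572 differed between acLDL-high and acLDL-low cells (4.75%) at a Benjamini-Hochberg adjusted p of 0.05, in a quasi-likelihood fit (edgeR) that took each occasion as a block. In these sorted pools, a change in the share of cells that express a gene and a change in RNA per cell cannot be told apart.

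The promoters of 3 members are shown because the results turn on them. Foxo1 was the member that passed the test, Foxc1 is the paralog set against Foxc2, and Foxa1 was the single member, of those with a promoter window, whose window held the forkhead motif itself. Foxc2, Foxm1, Foxf1 and Foxl1 were among the members without a window and were not examined. Each run is the 250 bases before the RefSeq gene start, read on the gene's strand (RefSeq, GRCm38.p6), with any GTAAACA, looked for on both strands, in capitals. They lie at chr3:52268087-52268336 (plus strand), chr13:31806396-31806645 (plus strand) and chr12:57546112-57546361 (minus strand). In GENCODE M21, the annotation used for lengths, Foxa1 spans chr12:57540628-57546916, so its run lies inside that gene model.
Foxo1: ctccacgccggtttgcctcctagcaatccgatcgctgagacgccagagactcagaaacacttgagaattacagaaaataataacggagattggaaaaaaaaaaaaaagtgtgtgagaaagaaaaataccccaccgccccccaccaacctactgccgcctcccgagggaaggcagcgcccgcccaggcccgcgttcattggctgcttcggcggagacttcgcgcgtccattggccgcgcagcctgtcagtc
Foxc1: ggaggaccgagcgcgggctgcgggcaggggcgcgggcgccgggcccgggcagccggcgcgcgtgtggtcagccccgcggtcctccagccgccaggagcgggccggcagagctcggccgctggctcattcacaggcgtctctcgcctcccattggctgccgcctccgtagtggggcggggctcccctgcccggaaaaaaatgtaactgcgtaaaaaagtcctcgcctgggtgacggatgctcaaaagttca
Foxa1: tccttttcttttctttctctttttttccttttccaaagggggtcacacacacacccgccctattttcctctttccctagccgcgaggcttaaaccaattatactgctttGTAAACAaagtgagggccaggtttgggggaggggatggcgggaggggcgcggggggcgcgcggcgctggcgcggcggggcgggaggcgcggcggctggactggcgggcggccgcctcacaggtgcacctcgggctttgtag
G and C made up 56.0% of the Foxo1 run, 70.8% of the Foxc1 run and 62.0% of the Foxa1 run. Windows of 300 bases (250 before to 50 after the start) could be matched for 17 of the 29 members, and 1 of the 17, Foxa1, held GTAAACA on either strand. Over all 27025 genes with a window, 1095 held it (4.05%). A match of letters is a description of the window and not a measured binding site.

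The level order was read per length, as CPM divided by kilobases of exon (CPM/kb). Of the 29 members, 20 had enough counts to be tested and 9 did not. The summed level of the 29 members was 1034 to 1175 CPM, and the 5 most abundant took 56.0% to 65.1% of it in each library. Foxk2, Foxm1 and Foxp4 led the order with mean levels of 34.2 ± 6.70, 31.6 ± 7.28 and 26.9 ± 1.78 CPM/kb (SD, n = 6 libraries). FOXK2 is a repressor of autophagy genes, and FOXP4 is a repressor of the FOXP group. Foxk2 was above Foxm1 in 4 of 6 libraries and Foxm1 above Foxp4 in 4 of 6, so these neighbours were not separated beyond their spread. Foxc2 followed as the fourth at 14.5 ± 4.15 CPM/kb, below Foxp4 in all 6 libraries and above Foxk1 (11.1 ± 1.07) in 4 of 6.

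Next came a group with closely spaced levels. Foxn2 (7.71), Foxc1 (7.67), Foxj3 (6.96), Foxo3 (6.79), Foxj2 (6.63), Foxo4 (6.36) and Foxo1 (6.30) had mean levels in CPM/kb close to each other, and the ranges of their 6 libraries overlapped. Foxn3 (4.44 CPM/kb) and Foxp1 (4.26 CPM/kb) lay below Foxo1 in all 6 libraries, and Foxa1 (2.66 CPM/kb) lay below Foxp1 in all 6. Foxl1, Foxj1, Foxf1 and Foxq1 were low, with means of 1.38, 0.944, 0.781 and 0.616 CPM/kb, and each of the first 3 was above the next in 4 of 6 libraries. Foxn1, the thymus epithelium factor, was hardly expressed at 0.0579 CPM/kb. With the longest transcript in place of all exons as the length, Foxm1 moved to the first place, Foxj3 to the fourth, Foxc2 to the fifth and Foxc1 from the seventh to the ninth.

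**Figure D1:**
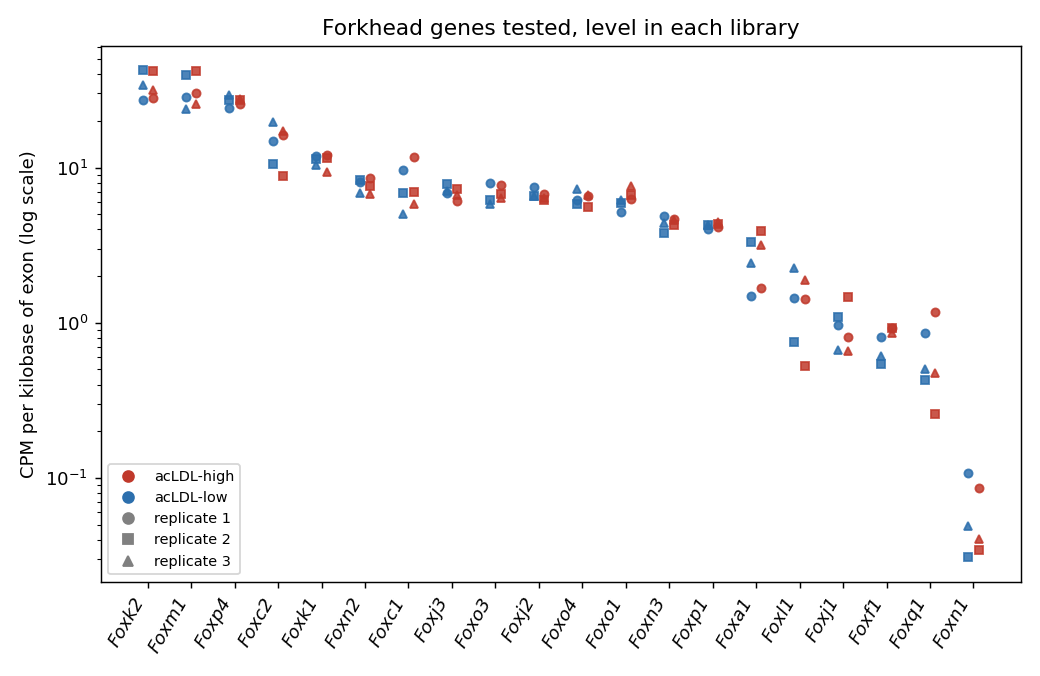
Level of each of the 20 tested forkhead genes in CPM per kilobase of exon (log scale), one point per library, with acLDL-high in red and acLDL-low in blue and the marker giving the replicate number. Foxk2, Foxm1 and Foxp4 lead, Foxc2 is the fourth at a mean of 14.5, and the Foxc2 and Foxc1 points spread more widely than those of their neighbours.

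The 9 members not tested were at the edge of detection, with at most 22 counts in any library. Foxd2 had 59 counts over the 6 libraries, Foxo6 24, Foxp3 20, Foxd4 19, Foxh1 19, Foxa3 16, Foxf2 6 and Foxr1 1. Foxp3 is the factor of regulatory T cells, and its 20 counts stand beside T cell markers that were near 0 or not compared. Foxp3 also shares 2082 bases of exon with Flicr, Ccdc22, Gm36995 and Ppp1r3f, so its counts are uncertain. Foxf2 lies between Foxq1 and Foxc1 on chromosome 13 and had its 6 counts in a single library, acLDL-low replicate 1.

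Between acLDL-high and acLDL-low cells, 1 of the 20 tested members passed, against 4.75% of all genes tested. It was Foxo1, which was higher (1 of 20 members, against 3.43% of all genes higher), and 0 of the 20 were called lower, against 1.32% of all genes (Foxj3, the lower member with the smallest p, passed only unadjusted). At an unadjusted p of 0.05, 6 of the 20 passed (Foxa1, Foxc1, Foxf1, Foxj3, Foxm1 and Foxo1), against 19.4% of all genes. The members' log2 fold changes ran from -0.24 to 0.48 with a median of -0.01, 9 above 0 and 11 below, beside a median of 0.00 over all genes tested. Every pair was higher on the acLDL-high side for 6 members (Foxa1, Foxc1, Foxf1, Foxm1, Foxo1 and Foxp1), against 20.9% of all genes. Foxj2, Foxj3 and Foxl1 were lower in all 3 pairs, against 19.4% of all genes. The groups did not overlap for Foxo1 and Foxf1, both higher in acLDL-high cells, against 1.23% of all genes.

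**Figure D2:**
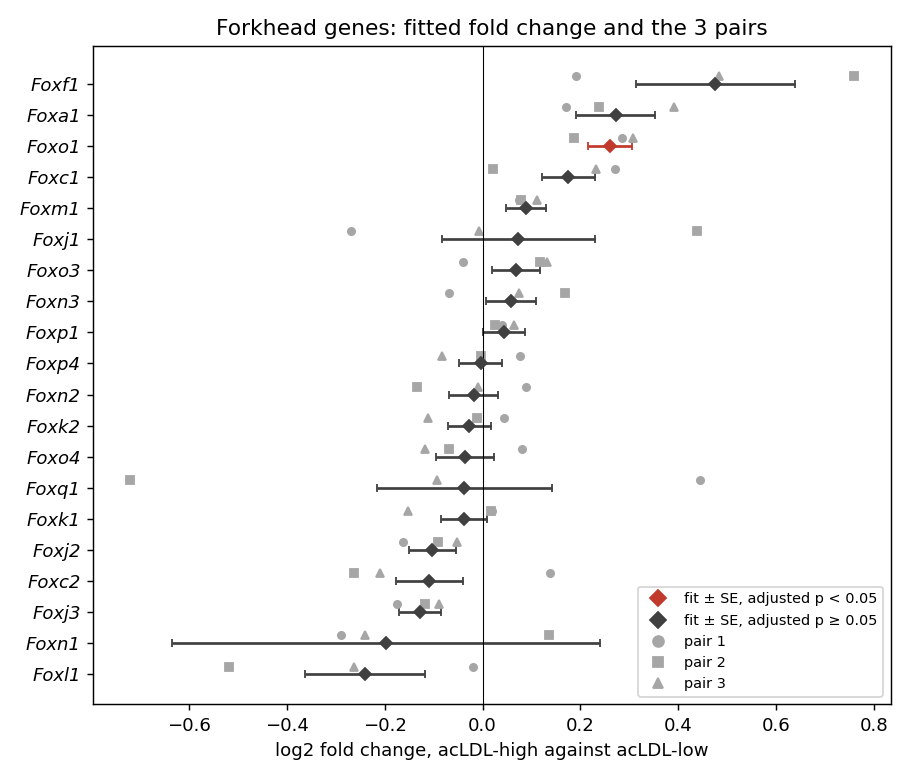
Log2 fold change of acLDL-high against acLDL-low cells for the 20 tested forkhead genes (x axis), with diamonds for the fitted value, bars for its SE, and grey markers for the 3 pairs. Foxo1 in red, at 0.26, is the member that passed at an adjusted p of 0.05, while Foxf1 at 0.48 has a wider bar.

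Foxo1, the insulin-regulated FOXO factor that also restrains endothelial growth, had 54.4, 57.9 and 66.3 CPM in acLDL-high replicates 1 to 3 and 44.7, 50.9 and 53.6 CPM in acLDL-low. All 3 acLDL-high libraries were above all 3 acLDL-low libraries, with means of 59.5 ± 6.08 and 49.7 ± 4.55 CPM (SD, n = 3). The log2 fold change was 0.26 (SE 0.05, 95% interval 0.16 to 0.36, edgeR adjusted p = 0.00669), with 0.28, 0.19 and 0.31 in the 3 pairs. Without replicate 3 the value was 0.24 and no longer passed (edgeR adjusted p = 0.101), when 1.01% of all genes tested were called. Without the block it was 0.26 with an adjusted p of 1, in a fit that called 0 of 12329 genes. DESeq2 with the block also called Foxo1 as the single member, with 2.93% of all genes called. The antisense gene Gm20402, which shares 674 bases of exon with Foxo1, had at most 1 count in any library.

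Foxo3, which shares its DNA site and AKT control with Foxo1, had 58.4, 50.9 and 48.2 CPM in acLDL-high and 60.1, 46.9 and 44.0 CPM in acLDL-low cells. Its groups overlapped and its log2 fold change was 0.07 (SE 0.05, edgeR adjusted p = 0.487). Foxo4, the X-linked member, ran from 19.4 to 23.3 CPM in acLDL-high and from 20.4 to 25.3 in acLDL-low libraries (log2 fold change -0.04, SE 0.06). Whether the Foxo1 change differed from that of Foxo3 or Foxo4 was not tested. Of the 24 genes of FOXO control (PI3K and AKT signalling, other kinases, 14-3-3 proteins, and factors of acetylation, ubiquitination and nuclear export), 1 rose and none fell, against 3.43% higher and 1.32% lower over all genes, with a median log2 fold change of 0.02. This share is near that of all genes. The gene that rose was Sgk1, a kinase that phosphorylates FOXO proteins, at 228, 408 and 325 CPM in acLDL-high and 187, 375 and 207 CPM in acLDL-low replicates 1 to 3 (log2 fold change 0.35, SE 0.07, edgeR adjusted p = 0.0182). It did not pass without replicate 3 (0.20, edgeR adjusted p = 0.145) or in DESeq2 with the block (0.19, adjusted p = 0.216).

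Among FOXO targets, 28 of 33 were tested, 1 rose and 2 fell, against 3.43% higher and 1.32% lower over all genes, with a median log2 fold change of -0.05. In DESeq2 with the block 2 were higher and 1 lower, with 2.93% of all genes called. Txnip, an inhibitor of thioredoxin and of glucose uptake, fell from 48.7, 5.64 and 9.27 CPM in acLDL-low replicates 1 to 3 to 29.7, 4.09 and 7.85 in acLDL-high. It was lower in each pair, although its level was several times higher on the first occasion than on the others (log2 fold change -0.50, SE 0.09, edgeR adjusted p = 0.00594), and without that occasion it was -0.34 and did not pass (edgeR adjusted p = 0.0922). Of the 3 sestrins, inhibitors of mTORC1, 1 rose, 1 fell and Sesn1 did not pass (log2 fold change -0.06, SE 0.07, edgeR adjusted p = 0.705). Sesn3 rose by a log2 fold change of 0.26 (SE 0.05, edgeR adjusted p = 0.00899), and Sesn2 was lower in all 3 pairs, with a log2 fold change of -0.23 (SE 0.06, edgeR adjusted p = 0.0431). Sesn3 did not pass without replicate 3 (edgeR adjusted p = 0.104), and Sesn2 did not pass without replicate 1 (0.131) or 3 (0.121), with all genes of the count table (0.0509) or in DESeq2 with the block (0.0591), all as adjusted p. The number of called FOXO targets was 1 without replicate 1 or 3 and 7 without replicate 2. Without replicates 1, 2 and 3 in turn, 5.25%, 6.96% and 1.01% of all genes were called. The forkhead motif stood in the promoter window of 5 of 30 FOXO targets (16.7%), against 4.05% of all genes.

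Foxc2 was nominally lower in acLDL-high cells, with overlapping groups, and its pairs differed in direction. It had 44.3, 23.9 and 46.6 CPM in acLDL-high replicates 1 to 3 and 40.2, 28.7 and 53.9 CPM in acLDL-low. Its log2 fold change of -0.11 (SE 0.07, edgeR adjusted p = 0.418) had a 95% interval of -0.26 to 0.04. The value depended on the occasions used. Without replicate 1 it was -0.23 and passed the test (edgeR adjusted p = 0.0196), with 5.25% of all genes called. Without replicate 2 it was -0.04 (edgeR adjusted p = 0.82) and without replicate 3 it was -0.05 (edgeR adjusted p = 0.86).

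Foxc1, the closest paralog of Foxc2, was higher in acLDL-high cells in each pair. It had 68.1, 40.8 and 34.3 CPM in acLDL-high and 56.4, 40.2 and 29.2 CPM in acLDL-low replicates 1 to 3. The groups overlapped because the occasions differed, and the pair of the second occasion was nearly level. The log2 fold change was 0.18 (SE 0.05, 95% interval 0.06 to 0.29, edgeR adjusted p = 0.094). It passed without replicate 2 (0.25, edgeR adjusted p = 0.00279), where 6.96% of all genes were called, and with no filter on low counts (0.18, edgeR adjusted p = 0.0343), where 5.83% were. It did not pass without replicate 1 (0.13, edgeR adjusted p = 0.321), without replicate 3 (0.15, edgeR adjusted p = 0.382) or in DESeq2 with the block (0.15, adjusted p = 0.161).

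Set against each other per length, Foxc2 was above Foxc1 in all 6 libraries. This order rests on the division by exon length, 5.844 kb for Foxc1 and 2.725 kb for Foxc2. In CPM, Foxc1 was above Foxc2 in replicates 1 and 2 of both groups and below it in replicate 3. The ratio of Foxc2 to Foxc1 in CPM/kb was 1.39, 1.26 and 2.92 in acLDL-high replicates 1 to 3 and 1.53, 1.53 and 3.96 in acLDL-low. It was lower in the acLDL-high library of each pair, and highest on the third occasion in both groups. The log2 change of Foxc1 exceeded that of Foxc2 by 0.13, 0.28 and 0.44 in the 3 pairs, a mean of 0.29 ± 0.15 (SD, n = 3 pairs). A two-sided exact sign-flip permutation test gave p = 0.25, the smallest that 3 pairs allow.

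Foxc2 stands in a cluster on chromosome 8 (GRCm38), where Foxf1 lies at chr8:121084386-121088144, Foxc2 at chr8:121116171-121118895 and Foxl1 at chr8:121127940-121130644, all on the plus strand. The gaps are 28026 bases from Foxf1 to Foxc2 and 9044 bases from Foxc2 to Foxl1. Foxl1, a factor of gut mesenchyme, had 3.83, 1.42 and 5.10 CPM in acLDL-high and 3.89, 2.04 and 6.13 CPM in acLDL-low replicates 1 to 3. Foxc2 and Foxl1 were both lowest on the second occasion and highest on the third. Foxo4, on the X chromosome, had the same order (22.3, 19.9 and 24.3 CPM on occasions 1 to 3). Foxl1 was nominally lower in acLDL-high cells in each pair (log2 fold change -0.24, SE 0.12, edgeR adjusted p = 0.311).

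Foxf1, a factor of lung and gut mesoderm and of endothelium, went the other way. It had 2.24, 2.24 and 2.09 CPM in acLDL-high and 1.96, 1.31 and 1.49 CPM in acLDL-low replicates 1 to 3. Its groups did not overlap, and its log2 fold change of 0.48 was the largest in size among the 20 members but did not pass (SE 0.16, 95% interval 0.12 to 0.83, edgeR adjusted p = 0.127). Against Foxc2, the Foxf1 change was 0.05, 1.02 and 0.69 higher in the 3 pairs on the log2 scale. Neighbouring genes of the cluster thus had values on both sides of 0, and these differences were not tested.

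A second cluster, on chromosome 13, holds Foxq1 (chr13:31556134-31560976), Foxf2 and Foxc1 (chr13:31806633-31812476), with 64839 bases from Foxq1 to Foxf2 and 175229 from Foxf2 to Foxc1. Foxq1, which is known for a part in breast cancer metastasis, had 5.66, 1.25 and 2.30 CPM in acLDL-high and 4.15, 2.08 and 2.46 CPM in acLDL-low replicates 1 to 3. Its pairs went in both directions (0.44, -0.72 and -0.09 on the log2 scale), and the fitted value was -0.04 (SE 0.18, edgeR adjusted p = 0.94). Foxq1 shares 3200 bases with A530084C06Rik on the opposite strand, and since the strand setting of the counting is not given in the sources used here, its counts are uncertain. Foxq1 and Foxc1 were both highest on the first occasion, and Foxq1 was lowest on the second and Foxc1 on the third.

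**Figure D3:**
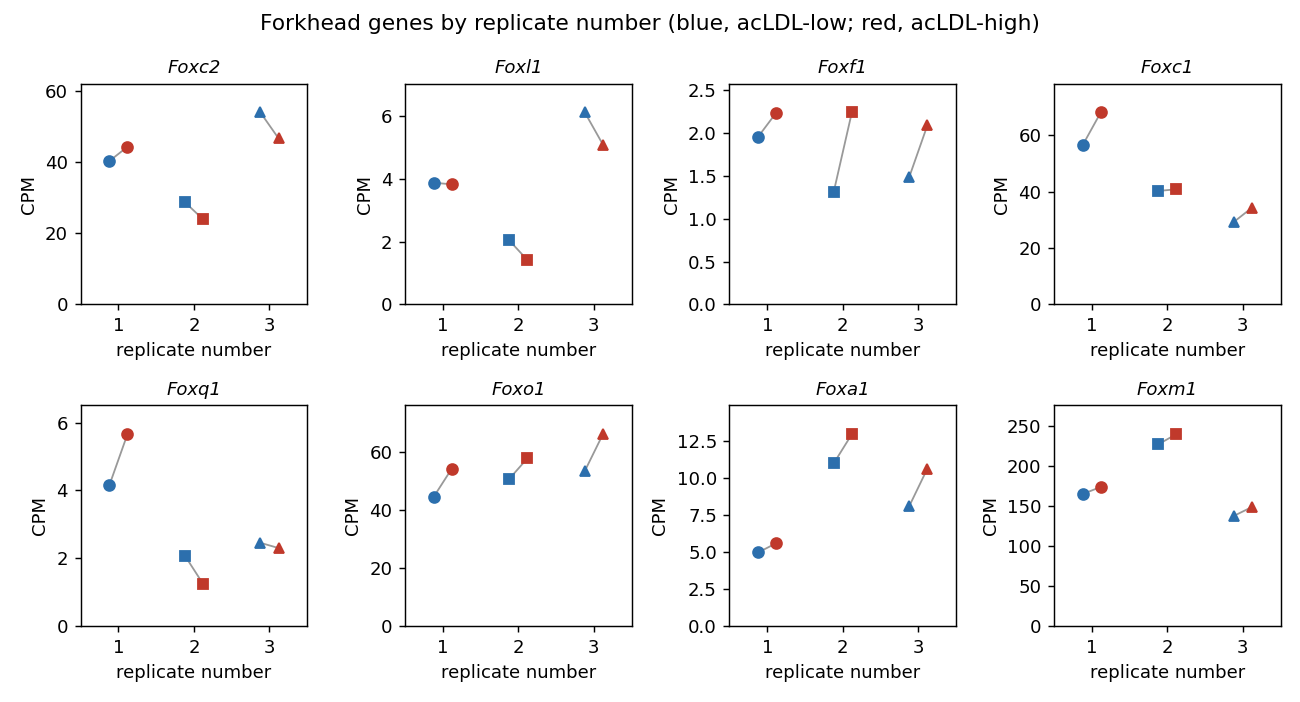
CPM of 8 forkhead genes by replicate number (x axis), with acLDL-low in blue and acLDL-high in red, and a line joining the libraries of an occasion. Foxc2 and Foxl1 are lowest at replicate 2 and highest at replicate 3, Foxc1 is highest at replicate 1, and in the Foxo1 and Foxf1 panels every red point lies above every blue one.

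Vascular genes linked to FOXC factors were counted next. Of 19 such genes, 12 were tested, and 5 rose and none fell, against 3.43% higher and 1.32% lower over all genes, with a median log2 fold change of 0.12. Itgb3, the beta3 integrin described as a FOXC2 target in endothelium, had 13.5, 11.5 and 30.0 CPM in acLDL-high and 8.41, 9.27 and 21.4 in acLDL-low replicates 1 to 3 (log2 fold change 0.49, SE 0.08, edgeR adjusted p = 0.00268). Pdgfb, which recruits pericytes, rose by 0.47 (SE 0.05, edgeR adjusted p = 0.000456). Nrp1, a VEGF co-receptor, rose by 0.36 (SE 0.07, edgeR adjusted p = 0.00819) and Notch1, an arterial fate receptor, by 0.28 (SE 0.05, edgeR adjusted p = 0.0105).

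The Notch ligand Dll4, by contrast, was at 14.6, 17.4 and 37.1 CPM in acLDL-high and 12.6, 22.1 and 39.9 CPM in acLDL-low cells (log2 fold change -0.09, edgeR adjusted p = 0.608). Prox1 and Flt4, both lymphatic genes, were not among the genes compared. Cxcr4, Tek, Etv2, Itga9 and Hey2 had too few counts to test. Without replicate 3, where 1.01% of all genes were called, 1 of the list's genes was called in place of 5. In that fit Itgb3, Nrp1 and Notch1 did not pass (edgeR adjusted p = 0.0887, 0.0767 and 0.16). The defining endothelial markers stayed near 0 in both groups, at 1.80 to 2.64 CPM summed in acLDL-high and 1.96 to 3.18 in acLDL-low libraries.

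Foxm1, the mitotic forkhead factor, had 174, 240 and 149 CPM in acLDL-high and 165, 227 and 138 CPM in acLDL-low replicates 1 to 3. It was higher in each pair by a similar amount (0.07, 0.08 and 0.11), while the occasions differed more than the groups. The log2 fold change was 0.09 (SE 0.04, edgeR adjusted p = 0.249). Foxm1 overlaps Tex52 and Gm44596 on the same strand over 241 bases, so reads there cannot be assigned to one gene.

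All 30 FOXM1 mitotic targets were tested, and 17 rose and none fell, against 3.43% higher and 1.32% lower over all genes. Their fitted log2 fold changes ran from 0.05 to 0.49, all above 0, with a median of 0.22 beside 0.00 over all genes tested. In the first pair some targets were below 0, among them Cenpe (-0.11) and Cks2 (-0.10). The median was 0.09, 0.39 and 0.26 in the 3 pairs, and 6 rose without replicate 3, where 1.01% of all genes were called. Ccnb1, the B-type cyclin of mitotic entry, had 102, 107 and 87.5 CPM in acLDL-high and 81.0, 72.3 and 59.2 CPM in acLDL-low replicates 1 to 3, with no overlap (log2 fold change 0.49, SE 0.05, edgeR adjusted p = 0.000212). Top2a, which untangles chromosomes, rose by 0.45, Prc1, which bundles the spindle midzone, by 0.45, and Cdc25b, a phosphatase that activates CDK1, by 0.44 on the log2 scale (edgeR adjusted p = 0.000196, 0.000394 and 0.000832).

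FOXM1 and MuvB act at a promoter element called CHR, with the letters TTTGAA. On either strand, it stood in the 300-base window of 18 of the 25 FOXM1 mitotic targets with a window (72.0%), against 20.2% of all genes. It was found in 10 of 15 targets that rose (66.7%) and in 8 of 10 that did not pass (80.0%). Of the 5 targets with the largest fold change, Ccnb1 and Cdc25b had no CHR match or no window. In the runs below, the CHR letters or their reverse complement are in capitals. Shown are the matches of Top2a, Prc1 and Cdk1, the rest of the 5, with 20 bases on each side (RefSeq, GRCm38.p6, gene strand). They lie at chr11:99024343-99024388 and chr11:99024187-99024232 (minus strand), chr7:80294426-80294471 (plus strand) and chr10:69352958-69353003 and chr10:69352902-69352947 (minus strand).
Top2a upstream: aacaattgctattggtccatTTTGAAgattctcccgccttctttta
Top2a at the start: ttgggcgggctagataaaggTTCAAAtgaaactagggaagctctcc
Prc1: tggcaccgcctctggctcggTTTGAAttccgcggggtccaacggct
Cdk1 upstream: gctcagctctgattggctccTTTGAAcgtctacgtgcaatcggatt
Cdk1 at the start: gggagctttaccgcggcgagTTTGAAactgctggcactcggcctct
Cdk1 itself, the kinase of mitotic entry, had 170, 220 and 156 CPM in acLDL-high and 133, 162 and 110 CPM in acLDL-low replicates 1 to 3 (log2 fold change 0.43, SE 0.04, edgeR adjusted p = 0.000155).

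Among the 14 genes that control FOXM1 or belong to MuvB, 2 rose and none fell, against 3.43% higher and 1.32% lower over all genes, with a median log2 fold change of 0.04. Fzr1, which directs FOXM1 to degradation as cells leave mitosis, had 90.5, 88.5 and 84.5 CPM in acLDL-high and 79.8, 69.6 and 68.5 CPM in acLDL-low replicates 1 to 3 (log2 fold change 0.28, SE 0.05, edgeR adjusted p = 0.00474). Its groups did not overlap. Lin54, the MuvB subunit that binds the CHR, rose by 0.19 (SE 0.05, edgeR adjusted p = 0.0373). Neither passed without replicate 3, and Lin54 did not pass without replicate 2 (edgeR adjusted p = 0.0863) or in DESeq2 with the block (adjusted p = 0.0682).

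**Figure D4:**
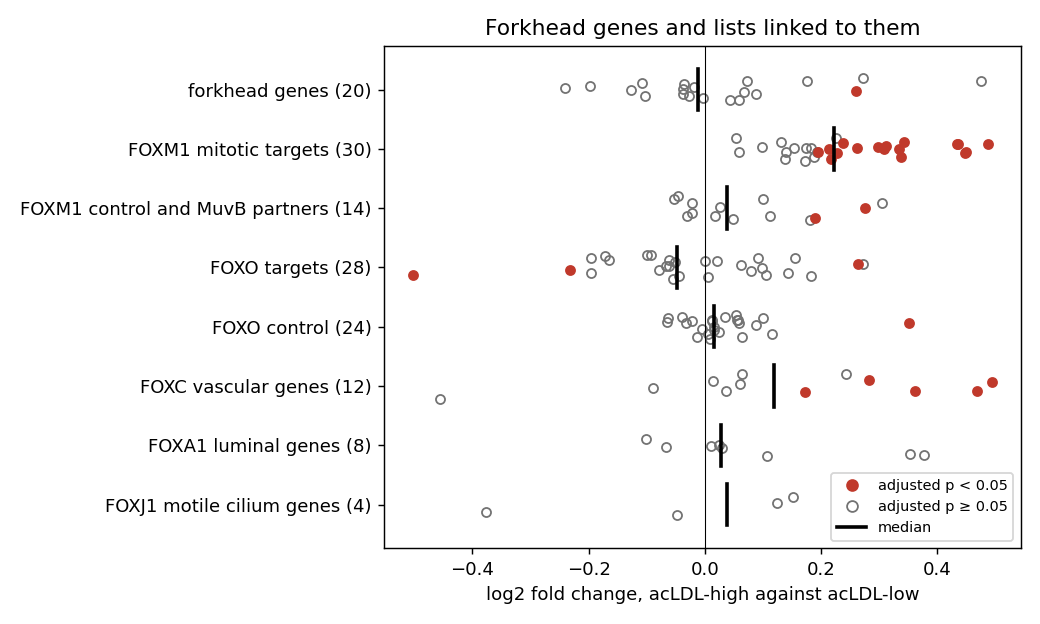
Log2 fold change of acLDL-high against acLDL-low cells for the forkhead genes and the lists linked to them (x axis), one circle per gene tested, with filled red circles at an adjusted p under 0.05 and a black bar at the median of each list. All 30 FOXM1 mitotic targets lie above 0 with a median of 0.22, and the median of the 20 forkhead genes is -0.01.

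Foxa1 had 5.59, 12.9 and 10.6 CPM in acLDL-high and 4.97, 11.0 and 8.09 CPM in acLDL-low replicates 1 to 3. It was higher in each pair, and its level on the first occasion was below that on the others in both groups. The log2 fold change was 0.27 (SE 0.08, 95% interval 0.10 to 0.45, edgeR adjusted p = 0.0793). It passed with no filter on low counts (0.28, edgeR adjusted p = 0.0296), where 5.83% of all genes were called, and in no other setting. Without replicates 1, 2 and 3 in turn it was 0.31, 0.29 and 0.21 (edgeR adjusted p = 0.053, 0.0988 and 0.43). In DESeq2 with the block it was 0.18 (adjusted p = 0.244). Of 12 luminal genes linked to FOXA1, 8 were tested and none was called, against 4.75% of all genes. Of the 8 tested, 6 were above 0, and the median was 0.03. Krt18, a luminal keratin, ran from 811 to 1368 CPM in acLDL-high and from 746 to 1420 in acLDL-low libraries, and Krt8 from 922 to 1389 and from 865 to 1363.

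Foxj1, the master factor of motile cilia, ran from 1.73 to 3.87 CPM in acLDL-high and from 1.74 to 2.85 CPM in acLDL-low libraries (log2 fold change 0.07, SE 0.16, edgeR adjusted p = 0.851). The motile cilium genes it controls were hardly expressed where compared. Of 12, 4 were not among the genes compared, 4 were tested and none was called, against 4.75% of all genes. Tekt2 was the most abundant of them at 0.61 to 1.56 CPM, and Dnaic2 lay at 0.11 to 0.50 CPM.

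Foxj3 was nominally lower in acLDL-high cells, with 66.7, 79.6 and 72.9 CPM against 75.3, 86.3 and 77.6 CPM in acLDL-low replicates 1 to 3. Every pair had this direction, yet the groups overlapped and the value did not pass (log2 fold change -0.13, SE 0.04, edgeR adjusted p = 0.12). Foxj2 had a log2 fold change of -0.10 (SE 0.05, edgeR adjusted p = 0.273), and it shares 160 bases with the antisense gene Gm26826 and with Mir7231.

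The remaining members showed small differences relative to their errors. Foxk1 and Foxk2 had log2 fold changes of -0.04 (SE 0.05) and -0.03 (SE 0.04), with Foxk2 at 147, 221 and 166 CPM in acLDL-high and 142, 223 and 180 CPM in acLDL-low replicates 1 to 3. Foxp4 (0.00, SE 0.04), Foxp1 (0.04, SE 0.04), Foxn2 (-0.02, SE 0.05) and Foxn3 (0.06, SE 0.05) did not pass either. The 95% interval of Foxp4 ran from -0.10 to 0.09 and that of Foxp1 from -0.05 to 0.14, whereas that of Foxn1 (87 counts in all) ran from -1.14 to 0.75, so a change of Foxn1 was not detectable at this depth.

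Differences between the 3 occasions were common among the members. In the test of the replicate terms, 18 of the 20 members differed at an adjusted p of 0.05, against 78.0% of all genes, and only Foxf1 (edgeR adjusted p = 0.375) and Foxp1 (edgeR adjusted p = 0.157) did not pass in this fit. Foxj2 (edgeR adjusted p = 0.0455) and Foxn1 (edgeR adjusted p = 0.0366) were near the threshold, and one or both dropped out with no filter on low counts, with all genes of the count table or in the DESeq2 likelihood ratio test. The highest occasion mean was 3.24 times the lowest for Foxl1, 2.95 times for Foxn1, 2.94 times for Foxq1 and 2.26 times for Foxa1. It was 1.96 times for Foxc1 (62.2, 40.5 and 31.7 CPM on occasions 1 to 3) and 1.91 times for Foxc2 (42.3, 26.3 and 50.3 CPM). For Foxm1 it was 1.63 times, with the second occasion highest, and for Foxp1 1.08 times. On the second occasion 5 members had their highest mean and 8 their lowest, counts that were not set against those over all genes.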

How the data were processed

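Libraries were made from polyA RNA with a stranded mRNA kit and sequenced as paired-end reads. Per the submitters' processing notes and the study's methods, the authors aligned reads to mm10 with STAR 2.5.2a and deposited raw counts per gene from featureCounts 1.4.3-p1. The annotation release and the strand setting are not given in the sources used here. The authors' DESeq2 1.20.0 table of acLDL-high against acLDL-low (means, fold changes, p-values) was used only for its other columns, the gene names and the set of protein-coding genes it lists. No sample column was left unused. Groups and replicate numbers came from the sample labels.

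Counts were tested with edgeR 4.0.16 (R 4.3.3): TMM scaling, filterByExpr, glmQLFit and glmQLFTest with the replicate number as a block, and Benjamini-Hochberg adjustment over the 12572 genes tested. The block follows the 3 occasions named in the design and the methods, and deviations from the group mean correlated at 0.795, 0.846 and 0.799 for same-numbered libraries and at -0.557 to -0.0882 for others. The occasion test covers both replicate terms of that fit. CPM values use TMM library sizes, a prior count of 2 entered only the pair values, and lengths and positions came from GENCODE M21 (GRCm38). A level of 0 is bounded by 3 counts, and this floor covers counting error only. The steps were tested on simulated data. Members, lists and tests were chosen with earlier results of these data known. Members were reported by name except 1 untested member that is not reported here, and of each other list up to 4 called genes by fold change, or the 2 most abundant where none was called. Cdk1, Dll4, Sesn1 and the FOXC-linked genes not compared or not tested were named outside this rule, after their values were seen. Alternatives were DESeq2 1.42.0, its size factors, other filters, no block and leaving out each replicate.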

Additional observations from a re-analysis of the deposited data

Results flagged for a closer look

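Fendrr, a non-coding RNA gene that ends 1275 bases before Foxf1, is outside the protein-coding comparison, and it is listed here because it held counts in every library. It had 527, 309 and 444 counts in acLDL-high and 480, 219 and 347 counts in acLDL-low replicates 1 to 3, where 3 counts would be the limit for a gene at 0. The corresponding levels were 6.62, 4.30 and 4.78 CPM and 6.34, 2.71 and 4.96 CPM. With all genes of the count table in the edgeR fit, its log2 fold change was 0.21 (SE 0.12, adjusted p = 0.42), and it differed between occasions (adjusted p = 0.000421). It was chosen after its counts were seen.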

How the results depend on the processing

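Direction and side of the threshold held for 180 of the 199 log2 fold changes of members under the alternatives, 12 changed sign, 4 came to pass and 3 ceased to. Without the replicate block, no gene was called by edgeR (0 of 12329, 45 at an unadjusted p under 0.05) or DESeq2 (0 of 15973, 60 unadjusted), nor were members (0) or genes of any list (0), and Foxq1 was 0.0888 and 0.0105. DESeq2 with the block called 2.93% of all genes, 1 FOXM1 control gene and 0 FOXO control genes, and Foxp4 was 2e-04. With no filter on low counts, 932 genes and 3 members were called and Foxp4 was 0.0034, and with all genes of the table it was 0.0068. Leaving out 1 replicate gave 126 (1.01%, without replicate 3) to 869 genes (6.96%, without replicate 2), 0 to 2 members, 6 to 25 FOXM1 mitotic targets, 0 to 2 FOXM1 control genes, 1 to 7 FOXO targets, 0 to 1 FOXO control genes and 1 to 5 FOXC vascular genes. Members near 0 then changed sign, with ranges of -0.1506 to 0.2441 for Foxj1, -0.0681 to 0.0202 for Foxk1, -0.0606 to 0.0172 for Foxk2, -0.0714 to 0.0373 for Foxn2, -0.0931 to 0.0079 for Foxo4, -0.0419 to 0.0385 for Foxp4 and -0.3814 to 0.2099 for Foxq1. The Foxc1 to Foxc2 difference stayed between 0.21 and 0.36. Fits without a replicate have fewer samples, and other causes were not tested. Depth limits Foxn1, the single tested member below 1 CPM, whose interval is the widest.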

Other observations

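Other genes within the 300000-base surroundings of the forkhead clusters gave values as follows, and they were chosen after the values were seen. Mthfsd, which lies between Foxf1 and Foxc2, ran from 38.8 to 43.3 CPM over the 6 libraries and did not pass between groups (log2 fold change -0.07, edgeR adjusted p = 0.44) or between occasions (edgeR adjusted p = 0.373), while Foxc2 and Foxl1 on its far side differed between occasions. Gmds, next to Foxc1, had 19.5, 29.5 and 13.6 CPM in acLDL-high and 17.9, 26.9 and 12.5 CPM in acLDL-low replicates 1 to 3. It was highest on the second occasion, where Foxc1 was not. Foxd2os, the non-coding neighbour of Foxd2, had 8.19 to 10.6 CPM where Foxd2 itself had 0.04 to 0.29 CPM.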
